A study of Homo sapiens with 4 samples.

Results

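The genes described here are the 7 protein arginine methyltransferases PRMT1, PRMT2, PRMT3, CARM1, PRMT5, PRMT6 and PRMT7 together with WDR77, the partner subunit of PRMT5. They were found by gene name in the deposited count tables, where each of the 8 occurred, out of 29655 distinct names. All 8 also passed the filter on low values and so belong to the 11896 protein-coding genes tested. The cells were UMSCC74B, an established line labelled HNSCC (head and neck squamous carcinoma), with a genotype label of wild type. RNA-seq libraries were made from total RNA, 2 from cells given a control shRNA plasmid and 2 from cells given a PRMT5 shRNA plasmid (PRMT5 KD), all after 72 h without antibiotic. The labels describe transfection, whereas the methods of the study describe transduction with lentiviral particles, and a single PRMT5 shRNA product is named. Nothing states that libraries of 1 group came from separate cultures, so the p-values measure only the spread between these libraries, which may be technical.

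Arginine methyltransferases move a methyl group from S-adenosylmethionine onto the arginine side chains of proteins such as histones, splicing factors and other RNA-binding proteins. The type I enzymes PRMT1, PRMT2, PRMT3, CARM1 and PRMT6 place both methyl groups on the same nitrogen (asymmetric dimethylarginine). PRMT5 is the main type II enzyme and places them on opposite nitrogens (symmetric dimethylarginine), which it does in a complex with the WD-repeat protein WDR77, also known as MEP50. PRMT7 is the type III enzyme, which adds a single methyl group.

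Several measurements bear on how the group labels can be read. The PRMT5 transcript, which the shRNA was meant to lower, was higher in both libraries labelled PRMT5 KD, so directions below are given by the label alone. At the protein level, the study reports from an immunoblot that its PRMT5 shRNA did silence PRMT5. That blot is not analysed here. Of 8 squamous epithelial markers (KRT5, KRT14, KRT6A, KRT17, TP63, SFN, CDH1, EPCAM) only TP63 passed the filter on low values. The keratins KRT5 and KRT6A had at most 4 counts in any library, and the whole list summed to between 4.56 and 7.93 CPM. Most of these squamous markers were thus near 0 in cells labelled as squamous, although TP63 was detected, at 5.51 and 6.60 CPM in control. The identity of the cells was not tested. Within the list TP63 was called lower by edgeR (log2 fold change -1.35, FDR = 0.0111). Without the filter on low values KRT14 (0 and 0 counts in control, 11 and 22 under PRMT5 KD), KRT17 (5 and 6 against 53 and 71) and SFN (3 and 5 against 28 and 86) were called higher by edgeR. In that fit 2938 of 16834 genes were called higher and 3233 lower. The summed level of the list overlapped between the groups. The immune markers PTPRC and CD3E had at most 5 counts per library. All 8 proliferation markers were called higher under the PRMT5 KD label, with summed levels of 893 and 642 CPM in control and 2164 and 2170 CPM under PRMT5 KD. Of 8 markers of other cell types, 4 were tested (CD14, PECAM1, COL1A1, DCN) and all 4 were called lower. The summed list fell from 158 and 190 CPM in control to 35.1 and 36.9 CPM under PRMT5 KD. For comparison, 21.2% of all genes tested were called higher and 24.3% lower. Ribosomal RNA took 15.3% and 14.2% of the counts in control and 26.2% and 18.0% under PRMT5 KD, out of 52185289 to 65964558 counts per library. The proliferation markers, the markers of other cell types and the share of ribosomal RNA moved with the group labels, and their part in the results below was not tested.

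The sequences that show where PRMT5 was measured, and what lies before the start of the member genes, are given first. The study's qRT-PCR assay for PRMT5 amplifies 65 bases of exon 14 of 17 in the MANE Select transcript (the single reference transcript agreed on for each gene), within the coding region at chr14:22922753-22922817 on the minus strand of GRCh38. Both primer sites occur in 10 of the 28 annotated PRMT5 transcripts. Capitals mark the stretch of each primer, the second as the reverse complement of the reverse primer. The counts analysed here cover the whole gene and not this stretch alone.
PRMT5 amplicon: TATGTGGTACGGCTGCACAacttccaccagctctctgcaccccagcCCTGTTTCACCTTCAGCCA

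The promoters of PRMT5, WDR77 and PRMT2 are shown because these are the targeted gene, its partner and the member called lower. They come from RefSeq (GRCh38.p14), end at the base before the first annotated exon base and run along the strand of the gene. The 250 bases before each RefSeq start were searched on both strands for CCAAT, for the GC box (GGGCGG), for the E-box (CACGTG) and for CGCGAGA, the last of which was picked after the WDR77 sequence had been read. Capitals mark every match on either strand, and a match on the opposite strand appears as its reverse complement.
PRMT5 promoter, chr14:22929409-22929626, minus strand: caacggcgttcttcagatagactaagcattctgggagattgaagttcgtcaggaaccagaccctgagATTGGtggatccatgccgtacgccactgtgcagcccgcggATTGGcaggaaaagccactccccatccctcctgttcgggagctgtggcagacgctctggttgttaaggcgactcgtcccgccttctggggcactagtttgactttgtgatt
WDR77 promoter, chr1:111449257-111449506, minus strand: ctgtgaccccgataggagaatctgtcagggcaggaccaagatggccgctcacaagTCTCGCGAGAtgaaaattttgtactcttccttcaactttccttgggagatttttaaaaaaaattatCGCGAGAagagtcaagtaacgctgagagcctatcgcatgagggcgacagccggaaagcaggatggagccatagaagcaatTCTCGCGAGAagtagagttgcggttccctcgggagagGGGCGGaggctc
PRMT2 promoter, chr21:46635424-46635594, plus strand: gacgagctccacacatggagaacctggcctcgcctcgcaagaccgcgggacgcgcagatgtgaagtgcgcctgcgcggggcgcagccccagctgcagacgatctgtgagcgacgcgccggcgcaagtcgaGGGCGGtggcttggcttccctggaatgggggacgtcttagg

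The 3 promoters held different letters. PRMT5 had 3 CCAAT matches in its 250 bases and no GC box, E-box or CGCGAGA. The third runs past the end of the printed stretch into an annotated exon and is left in lower case. WDR77 had 5 matches to CGCGAGA, of which 2 pairs overlap as the palindrome TCTCGCGAGA, and 1 GC box. The promoter of PRMT2 had 2 GC boxes, 1 of them past the printed stretch, and no CCAAT. PRMT1 had 2 CCAAT matches and 1 GC box, PRMT3 had 2 GC boxes and 1 E-box, and PRMT7 had 1 GC box. CARM1 had 5 GC boxes and 1 CGCGAGA, while PRMT6 had no match to any of the 4 motifs. Both CCAAT matches of PRMT1 lie past the first annotated exon base in its window. So do the GC box of PRMT7 and the PRMT3 GC box that lies 8 bases before the start. Among 27305 RefSeq promoters of this length, CCAAT occurred in 33.0%, the GC box in 42.3%, the E-box in 6.49% and CGCGAGA in 2.96%. CCAAT was thus found in 2 of the 8 members, beside 33.0% of all promoters. Both of those genes were called higher, whereas WDR77, PRMT3 and PRMT7 were called higher with no CCAAT in the window. A link between motifs and calls was not tested.

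The libraries labelled PRMT5 KD were compared with the control libraries of the same cancer line. Levels are CPM values (reads scaled to a common library size) after TMM scaling over the genes tested, SDs are over 2 libraries, and calls needed an FDR below 0.05 and a log2 fold change of 0.5 or more in either direction in the quasi-likelihood test of edgeR. Of the 8 members, 5 were called higher (PRMT1, PRMT3, PRMT5, PRMT7, WDR77), 1 was called lower (PRMT2) and CARM1 and PRMT6 were not called. Over all genes tested, 21.2% were called higher and 24.3% lower, together 45.5%, so a call in either direction was common in these libraries. The median log2 fold change of the 8 members was 0.59, against -0.01 over all genes. The groups did not overlap for 7 of the 8 members, CARM1 being the exception, and for 80.5% of all genes tested. None of the 8 reached a log2 fold change of 1 in either direction, a threshold that 2560 genes passed.

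**Figure D1:**
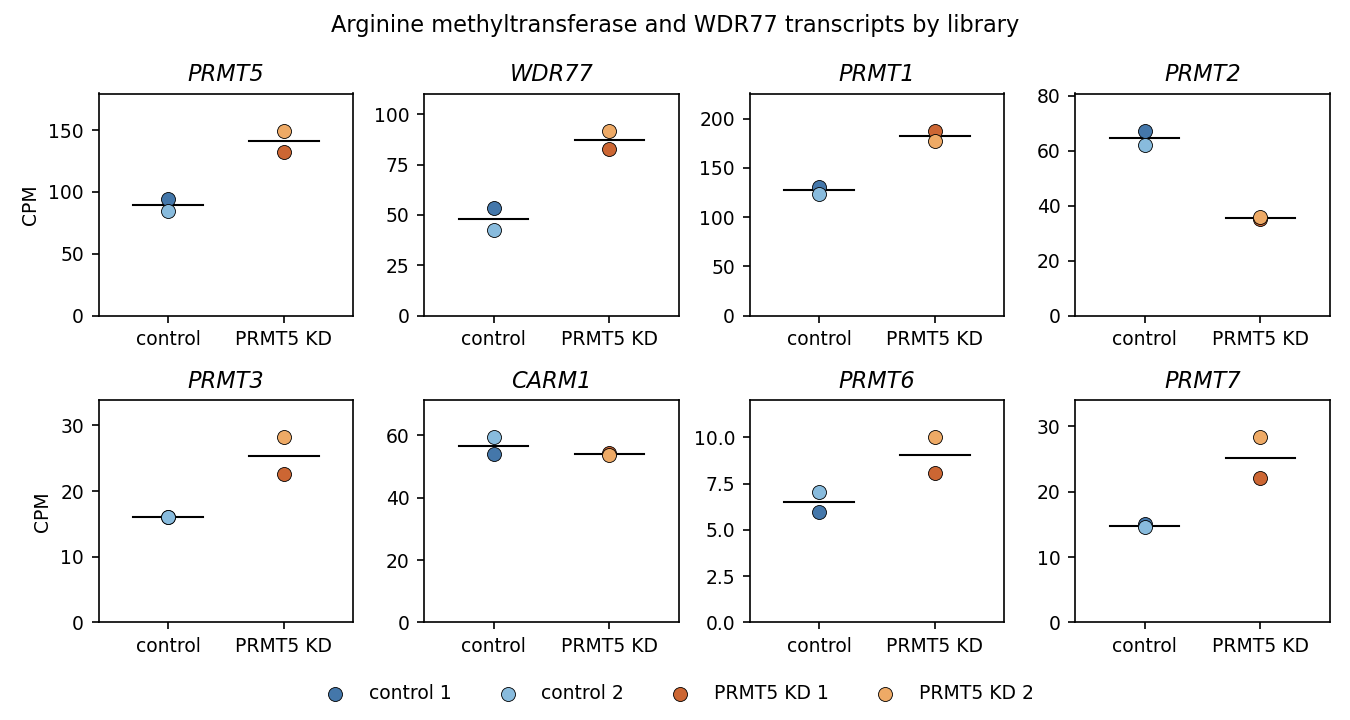
Level of each transcript in CPM (vertical axes from 0, own scale per gene) in the 2 control and 2 PRMT5 KD libraries. Points are libraries and lines are group means. The PRMT5 KD points lie above both control points for PRMT5, WDR77, PRMT1, PRMT3, PRMT6 and PRMT7, below them for PRMT2, and for CARM1 1 of them lies between the controls and 1 just below both.

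PRMT5, the targeted gene, lies at chr14:22920525-22929408 on the minus strand of GRCh38. The control libraries gave it 3732 and 4215 estimated counts, the libraries labelled PRMT5 KD 6285 and 7150. Scaled, these were 94.3 and 84.3 CPM in control and 132 and 150 CPM under PRMT5 KD. Both libraries labelled PRMT5 KD lay above both controls. The means of 89.3 ± 7.09 CPM (SD, n = 2) and 141 ± 12.4 CPM (SD, n = 2) correspond to a log2 fold change of 0.66 in the edgeR fit (standard error 0.12, 95% interval 0.36 to 0.96, FDR = 0.00545). A larger log2 fold change was found in 2013 of the 11896 genes. Without control 2 the value was 0.58 and the call was lost (FDR = 0.0675). PRMT5 shares 924 exon bases with PRMT5-AS1 on the opposite strand, which has no entry under that name in the count tables. The kit named in the labels marks strand, but whether the counting used it is not given in the sources used here, so reads of the antisense transcript cannot be told apart. Transcript counts do not measure the protein.

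WDR77, the WD-repeat subunit that binds substrates for PRMT5, lies at chr1:111439890-111449256 on the minus strand. Control libraries had 53.2 and 42.3 CPM, and libraries labelled PRMT5 KD had 82.8 and 92.0 CPM, from 2107, 2116, 3938 and 4395 counts. The 2 controls differed from each other by less than either differed from the PRMT5 KD libraries. In the fit on all 4 libraries the log2 fold change of WDR77 was 0.87 (standard error 0.15, 95% interval 0.52 to 1.22, FDR = 0.00349), and 1347 of the genes tested had a larger one. With offsets for exon length and GC content it was 0.68, below the 1.15 of PRMT7 in the same fit. It stayed called with any single library left out, with log2 fold changes from 0.71 to 1.05. On a length basis (CPM per kilobase of all annotated exons, RPKM), the ratio of PRMT5 to WDR77 was 1.45 and 1.63 in control and 1.31 and 1.33 under PRMT5 KD. With MANE Select lengths it was 1.89 and 2.12 in control and 1.70 and 1.73 under PRMT5 KD. The PRMT5 transcript thus exceeded the WDR77 transcript in all 4 libraries, while the amounts of the 2 proteins were not measured here. WDR77 shares 673 exon bases with a long noncoding RNA (ENSG00000243960) on the same strand. That RNA has no entry under this name in the count tables, and its reads cannot be told apart. It shares 90 exon bases with ATP5PB on the opposite strand, whose log2 fold change was -0.27 (edgeR, FDR = 0.0912), not past the threshold.

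Among the type I enzymes, PRMT1, which makes most of the asymmetric dimethylarginine in human cells, lies at chr19:49675786-49689029. Its level was 131 and 124 CPM in control and 188 and 177 CPM under PRMT5 KD, 2 pairs without overlap. The log2 fold change was 0.52 (standard error 0.11, 95% interval 0.26 to 0.78, FDR = 0.00839), just past the fold change threshold. The call was lost without control 1 (0.56, FDR = 0.0554) and without control 2 (0.48, FDR = 0.0879).

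PRMT2, a type I enzyme with an SH3 domain that also acts as a coactivator of nuclear receptors, lies at chr21:46635595-46665124 and was the only member called lower. It had 67.4 and 62.1 CPM in control against 35.3 and 36.1 CPM under PRMT5 KD, from 2668, 3104, 1679 and 1725 counts. The 2 libraries labelled PRMT5 KD were closer to each other than the controls were, and both lay far below them. From means of 64.7 ± 3.79 and 35.7 ± 0.564 CPM (SD, n = 2 per group), the fit gave -0.86 as the log2 fold change (standard error 0.11, 95% interval -1.13 to -0.59, FDR = 0.00143), and 1892 of the genes tested had a lower one. Its call held with any single library left out, between -0.92 and -0.80.

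PRMT3, a cytosolic type I enzyme with a zinc finger that methylates a protein of the small ribosomal subunit, lies at chr11:20387558-20509338. It had 16.1 and 16.0 CPM in control, almost the same value in both. Under the PRMT5 KD label it had 22.6 and 28.2 CPM, both above control but further apart. The log2 fold change was 0.66 (standard error 0.15, 95% interval 0.30 to 1.03, FDR = 0.0114). It was lost as a call without control 1 (0.67, FDR = 0.0800) or control 2 (0.66, FDR = 0.0905), while its size hardly moved.

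CARM1, also called PRMT4, methylates histone H3 and transcriptional coactivators and lies at chr19:10871553-10923075. Its level was 54.1 and 59.3 CPM in control and 54.4 and 53.7 CPM under PRMT5 KD, and it was the only member whose groups overlapped. The fitted log2 fold change was -0.07 (FDR = 0.621, standard error 0.11), with a 95% interval from -0.34 to 0.20 that leaves out the values fitted for the 6 members called. The sign changed with the scaling, to 0.11 on total counts of the genes tested. CARM1 shares 891 exon bases with YIPF2 on the opposite strand, which was called lower, from 71.5 and 80.3 CPM to 34.9 and 34.8 CPM (log2 fold change -1.12, standard error 0.12, FDR = 0.000701). How many reads of that overlap were counted for CARM1 cannot be told apart in these files.

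PRMT6, which methylates histone H3 and whose MANE Select transcript has 1 exon, lies at chr1:107056674-107067636. It was the member with the fewest counts, namely 236 and 352 with the control shRNA and 385 and 478 with the PRMT5 shRNA. In CPM these were 5.96 and 7.04 against 8.09 and 10.0, so the groups did not overlap, though by a narrow gap. The log2 fold change of 0.47 (standard error 0.19, 95% interval 0.01 to 0.94) did not pass either part of the threshold (FDR = 0.0783). It did pass on total counts of the genes tested (0.66, FDR = 0.0298), with all gene names tested (0.59, FDR = 0.0403) and without PRMT5 KD 1 (0.66, FDR = 0.0187).

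PRMT7, the type III enzyme, lies at chr16:68310951-68360852. Its level was 15.0 and 14.5 CPM in control and 22.0 and 28.3 CPM under PRMT5 KD. The 2 PRMT5 KD libraries differed by more than the controls did, and both lay above them. The log2 fold change was 0.77 (standard error 0.16, 95% interval 0.38 to 1.16, FDR = 0.00829). It was lost as a call without control 1 (0.79, FDR = 0.0622) or control 2 (0.74, FDR = 0.0788). With offsets for exon length and GC content the log2 fold change was 1.15. SMPD3, which shares 1931 exon bases with PRMT7 on the opposite strand, had between 7 and 15 counts per library.

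**Figure D2:**
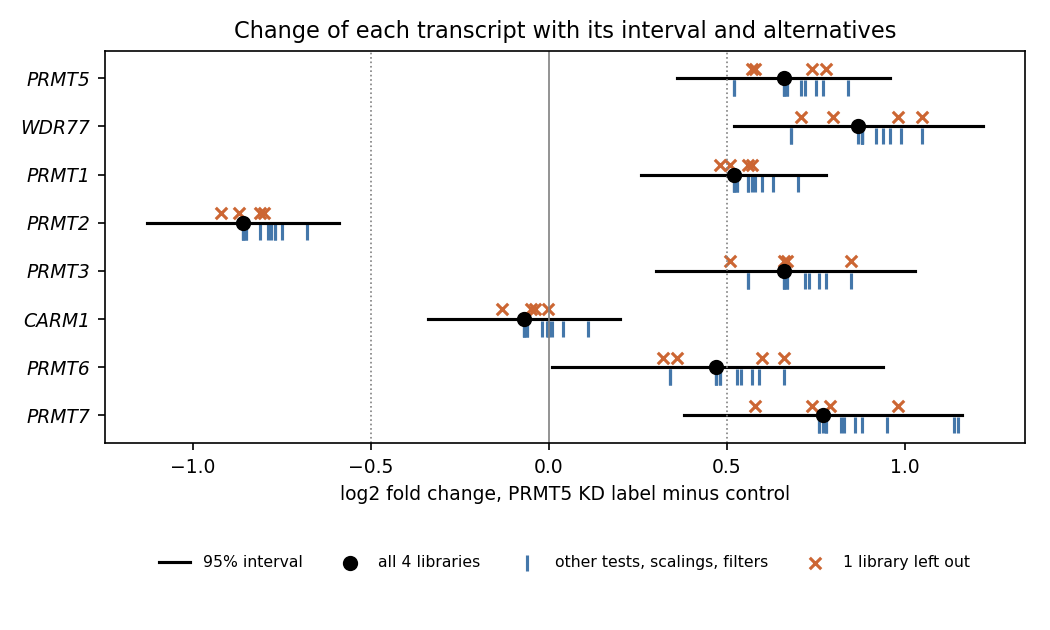
Log2 fold change of each transcript, PRMT5 KD label minus control. Black points and lines give the fit on all 4 libraries with its 95% interval, blue ticks other tests, scalings and filters, and orange crosses the fits with 1 library left out. Every value lies above 0 for PRMT5, WDR77, PRMT1, PRMT3, PRMT6 and PRMT7 and below 0 for PRMT2, the dotted lines mark 0.5 in each direction, and CARM1 straddles 0.

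Levels were next compared between genes per length of the transcript. With the union of all annotated exons as the length, PRMT5 and PRMT1 were close. PRMT5 made up 34.9% and 32.7% of the summed RPKM of the 7 methyltransferases in control and 38.8% and 41.9% under PRMT5 KD. For PRMT1 the same share was 33.1% and 32.8% in control and 37.7% and 33.9% under PRMT5 KD. PRMT5 was thus above PRMT1 in 3 libraries and level with it in control 2, with a ratio of 0.998 there and 1.05 in control 1. Both enzymes together made up 67.9% and 65.5% in control and 76.4% and 75.8% under PRMT5 KD, values that did not overlap. The share of PRMT2 was 10.7% and 10.4% in control and 4.46% and 4.36% under PRMT5 KD. CARM1 made up 14.8% and 17.1% in control and 11.8% and 11.2% under PRMT5 KD, a lower share of a larger sum at a similar level.

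Below these came PRMT3, PRMT6 and PRMT7, each at or under 4.71% of the sum in every library. In descending order, the levels were PRMT5 and PRMT1, WDR77, CARM1, PRMT2, PRMT3, PRMT6 and PRMT7, and in PRMT5 KD 2 PRMT3 stood above PRMT2. The order depends on the length. The exons of all annotated transcripts of PRMT1 cover 4796 bases and those of its MANE Select transcript 1328, and for PRMT7 these lengths are 13884 and 3738. With MANE Select lengths PRMT1 was first in every library, with 50.0% and 49.8% of the sum in control and 57.0% and 52.9% under PRMT5 KD. On that basis PRMT5 was second, with 20.8% and 19.6% in control and 23.1% and 25.7% under PRMT5 KD, and PRMT7 stood above PRMT6. PRMT5 had a higher share under the PRMT5 KD label on both scales.

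**Figure D3:**
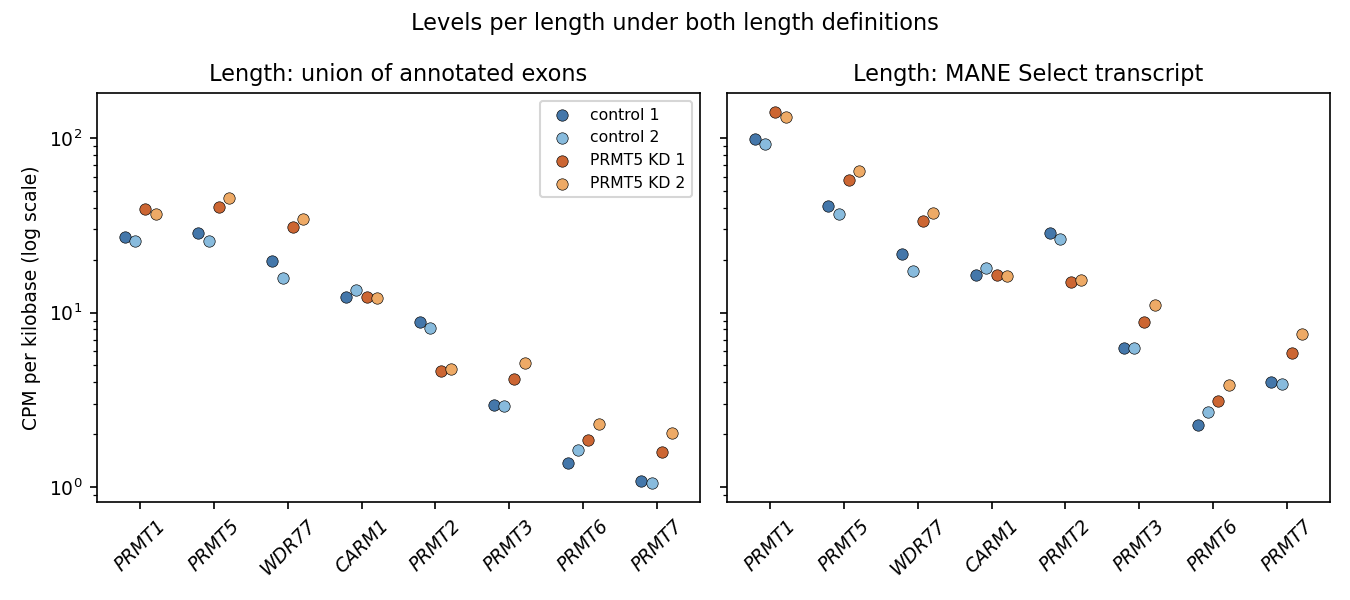
Level per length in CPM per kilobase (log axis) in each library, with the union of annotated exons (left) or the MANE Select transcript (right) as the length. PRMT1 and PRMT5 share the top on the left, where PRMT5 to PRMT1 ratios run from 0.998 to 1.24, and PRMT1 stands alone on the right, where they run from 0.393 to 0.487.

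To place PRMT5 and WDR77 among all genes, the log2 CPM of each gene was centred on its mean over the 4 libraries and the Euclidean distance to each of them was taken. The genes nearest to PRMT5 were PRDM4 (distance 0.017), CDKN3 (0.022), ZNF613 (0.023), TBRG4 (0.023) and SLC25A15 (0.034). The nearest to WDR77 were ANKRD52 (0.033), EIF2B3 (0.059), GBP3 (0.062), CEP164 (0.062) and HIC2 (0.063). With 4 libraries this pattern is a common one, since 1342 genes lay within 0.3 of PRMT5 and 654 within 0.3 of WDR77. Among the other members, PRMT3 was nearest to PRMT5, at rank 232 (0.145), followed by PRMT7 at rank 442, PRMT1 at rank 853 and WDR77 at rank 942 (0.252).

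The genes around arginine methylation were described by role, with 50 genes in 9 lists, of which 44 were tested. Of these, 15 were called higher, 2 lower and 27 were not called, with a median log2 fold change of 0.33, where over all genes 21.2% were called higher and 24.3% lower. Of the 3 other enzymes tested, none was called higher. METTL23, a relative of the arginine methyltransferases, was called lower, from 22.1 and 23.6 CPM to 17.2 and 14.6 CPM (log2 fold change -0.52, FDR = 0.0219). PRMT9, the other type II enzyme, had a value of 0.08 and NDUFAF7, a mitochondrial enzyme, of -0.16, and PRMT8, a brain enzyme, had at most 1 count.

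Of the 3 adaptors that steer PRMT5 to its substrates, COPRS, which binds histones, was called higher, from 16.1 and 15.8 CPM to 29.3 and 25.0 CPM (log2 fold change 0.77, FDR = 0.00478). RIOK1, which brings ribosomal substrates, had an FDR below 0.05 but too small a fold change for a call (0.44, FDR = 0.0385). CLNS1A (pICln), which brings the Sm proteins of the spliceosome, had a value of -0.36 (FDR = 0.0524). The adaptors that compete for the same site of PRMT5 thus had values of both signs, with a list median of 0.44. Among the regulators, BTG2, a partner of PRMT1, was called higher, at 2.10 and 1.82 CPM in control and 3.99 and 4.52 CPM under PRMT5 KD (log2 fold change 1.12, FDR = 0.00851), and BTG1 (0.34) and EPB41L3 (0.29) were not called.

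The supply and removal of methyl groups showed a mixed picture. AHCY, which clears the S-adenosylhomocysteine left after each methyl transfer, was called higher, from 104 and 103 CPM to 180 and 197 CPM (log2 fold change 0.86, FDR = 0.00137). MAT2B, the regulatory subunit of the enzyme that makes S-adenosylmethionine, had an FDR below 0.05 but fell just short of the fold change asked for (0.50, FDR = 0.0113), and the catalytic subunit MAT2A had a value of -0.31 (FDR = 0.109). Of the 2 genes of free dimethylarginine breakdown, DDAH1 was called higher, from 70.6 and 51.7 CPM to 127 and 127 CPM (log2 fold change 1.06, FDR = 0.00266). DDAH2 was called lower, from 9.68 and 10.4 CPM to 2.86 and 3.68 CPM (log2 fold change -1.62, FDR = 0.0013). JMJD6, a dioxygenase, had a value of 0.07. The 4 peptidylarginine deiminases, which turn arginine into citrulline, did not pass the filter on low values. Counts of PADI1 were 80 and 108 in control against 3 and 3 under PRMT5 KD, PADI3 had 55 and 87 against 5 and 1, PADI4 had 18 and 37 against 0 and 1, and PADI2 had 10 and 21 against 3 and 8.

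Among 6 readers of methylated arginine, SMN1, the Tudor protein that assembles spliceosomal particles, was called higher (log2 fold change 0.71, FDR = 0.00343). Its near-identical copy SMN2 makes the split of reads between them uncertain. The other 5 were not called, SND1 (-0.49, FDR = 0.0166), SMNDC1 (0.36, FDR = 0.0338) and TDRD3 (-0.46, FDR = 0.0345) because of the fold change threshold alone, and the list median was 0.16.

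The transcripts of known substrates were listed by enzyme. Of 8 substrates of PRMT5, 5 were called higher, with a list median of 0.70. They were the Sm proteins SNRPB (1.45, FDR = 0.000511), SNRPD1 (1.19, FDR = 0.00057) and SNRPD3 (0.86, FDR = 0.00297), the Cajal body protein COIL (0.55, FDR = 0.0128) and the cell cycle factor E2F1 (2.29, FDR = 0.00025). E2F1 moved most, from 20.3 and 16.8 CPM in control to 96.3 and 84.4 CPM under PRMT5 KD. LSM4 (0.44, FDR = 0.023), SUPT5H (0.14) and FXR1 (0.27) were not called, LSM4 because of the fold change threshold alone.

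Of 8 substrates of PRMT1, 5 were also called higher, with a list median of 0.55. They included the mRNA export adaptor ALYREF (1.23, FDR = 0.000819), the nucleolar methyltransferase FBL (1.21, FDR = 0.000615), the splicing factor HNRNPA1 (0.78, FDR = 0.00273) and the RNA-binding protein SERBP1 (0.56, FDR = 0.00584). HNRNPA1 has many processed pseudogenes, so its counts are uncertain. The study also describes its protein as methylated by PRMT5, so the lists are not separate classes of substrate. KHDRBS1 (0.49, FDR = 0.00903), EWSR1 (0.26) and TAF15 (-0.24) were not called, KHDRBS1 because of the fold change threshold alone. None of the 7 substrates of CARM1 was called in the edgeR fit, with a list median of -0.14 and values from -0.44 for MED12 to 0.32 for SMARCC1. MED12 (FDR = 0.0169), NCOA3 (-0.39, FDR = 0.0218) and SMARCC1 (FDR = 0.0394) missed a call because of the fold change threshold alone. The counts differ between the lists, but that difference itself was not tested. E2F1, SNRPB and FBL rose together with the proliferation markers, whose own median log2 fold change was 1.64, and how much of each value goes with proliferation was not tested.

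**Figure D4:**
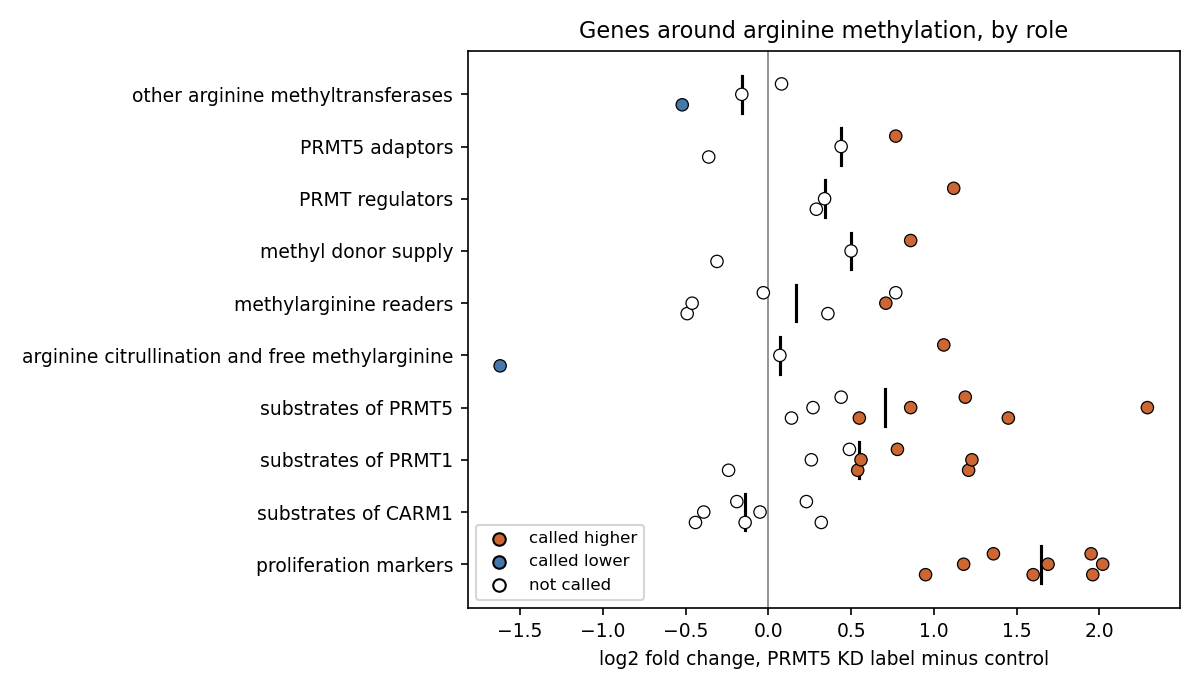
Log2 fold change (PRMT5 KD label minus control) of each tested gene in the 9 lists around arginine methylation and in the proliferation markers. Filled points were called, open points were not, and bars give list medians. The substrates of PRMT5 (median 0.70) and PRMT1 (0.55) lie mostly to the right, those of CARM1 (-0.14) around 0.

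MTAP, which clears methylthioadenosine, a metabolite that inhibits PRMT5, had 0 counts in all 4 libraries. A count of 0 allows up to 3 counts, or 0.0758 and 0.0600 CPM in control and 0.0631 and 0.0628 CPM under PRMT5 KD, counting error only. MTAP lies at chr9:21802636-21937651. Its neighbours were looked up after this value had been seen. CDKN2A, which encodes the cell cycle inhibitor p16, and CDKN2B, which start 165 and 200 kb beyond the start of MTAP, also had 0 counts in every library, and CDKN2B-AS1 had 4 counts in control 2 and 0 elsewhere. Of the listed genes further out, 4 reached at least 510 counts in 1 library (KLHL9, MIR31HG, IFNE and DMRTA1), IFNB1 had at most 22, and the remaining interferon genes and PTPLAD2 had at most 3. DMRTA1, at 644 kb, had 468, 510, 431 and 398 counts in control 1, control 2, PRMT5 KD 1 and PRMT5 KD 2. KLHL9, at -473 kb, had 3335, 4439, 3142 and 3726 counts in the same order. The cause of the missing counts was not tested.

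**Figure D5:**
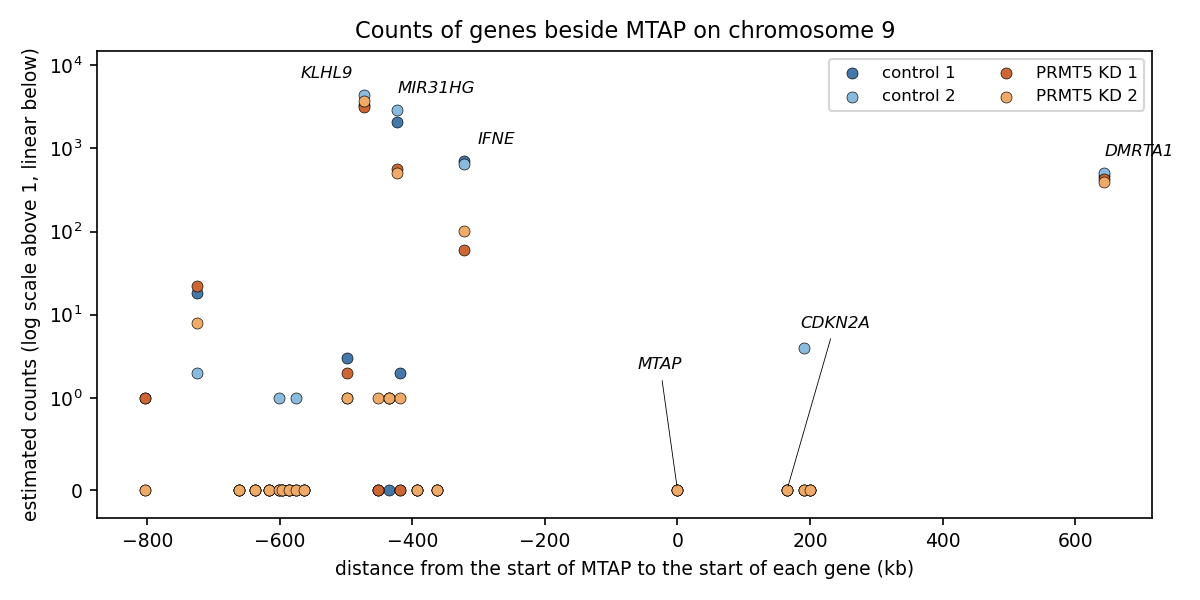
Estimated counts (axis linear below 1 and logarithmic above) of the listed genes around MTAP against the distance of their start from that of MTAP in kb. Points are libraries, and points at 0 overlie each other. MTAP, CDKN2A and CDKN2B lie at 0, between IFNE at -322 kb and DMRTA1 at 644 kb.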

How the data were processed

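The authors deposited estimated counts per gene, 1 table per library, without normalization. The submitters' processing notes name FastQC, Trim Galore, STAR, Salmon and DESeq2 with GRCh38, whereas the study's methods name FeatureCounts. Entries of the same name were summed, and 28 names that read as dates were left out. Names were matched to GENCODE release 44. Counts were rounded, and protein-coding genes that reached 0.5 RPKM in both control or both PRMT5 KD libraries were tested with the robust quasi-likelihood test of edgeR 4.0.16 (R 4.3.3, TMM factors 0.946, 0.934, 1.04 and 1.09), with Benjamini-Hochberg adjustment over all genes (FDR). Standard errors came from the F statistic. With 2 libraries against 2, a permutation test cannot go below 0.333. The procedure was tested on simulated data. Alternatives were DESeq2 1.42.0, other scalings, filters and thresholds, a replicate block, length and GC offsets (natural splines, 4 degrees of freedom), and fits without each library. The text names the 8 members, the called genes of each list except 1 that is not reported here, the 5 genes nearest to PRMT5 and to WDR77, and some list genes that were not called. The latter and the neighbours of MTAP fall outside the naming rule, having been picked once their values were known. Members and lists were chosen with earlier results of these data known. PCR copies are not independent molecules.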

Additional observations from a re-analysis of the deposited data

How the results depend on the processing

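Across 12 other tests, scalings, filters and models, PRMT1, PRMT2, PRMT3, PRMT5, PRMT7 and WDR77 kept their direction and call, and between 5083 and 7040 genes were called (5417 in the reported fit). DESeq2 called 5526 genes and the same 6 members. With a log2 fold change of 1 or more required in either direction, 2560 genes and 0 members were called. Leaving out 1 library gave 3117 to 5708 genes and 2 to 7 members called. Without control 1 there were 3867 genes and 3 members, without control 2 there were 3117 genes and 2 members (PRMT2 and WDR77), and without PRMT5 KD 1 there were 5708 genes and 7 members. Over these 4 fits the log2 fold change ran from 0.48 to 0.57 for PRMT1, from 0.51 to 0.85 for PRMT3, from 0.57 to 0.78 for PRMT5, from 0.32 to 0.66 for PRMT6 and from 0.58 to 0.98 for PRMT7. Each such fit has 1 library in an arm, which is assumed to vary like the other group. CARM1 reversed to 0.11 on total counts of the genes tested, 0.01 on total counts over all names and 0.04 with all gene names tested, and none of the 3 was called. PRMT6 passed at 0.66 on total counts of the genes tested and at 0.59 with all gene names. Total counts of the genes tested moved the median of all genes from -0.01 to 0.17 and the split of calls from 2521 higher and 2896 lower to 3509 higher and 2198 lower. The cause of these changes was not tested. Replicate numbers gave no sign of pairing, with a correlation of deviations of -0.102 between same-numbered libraries. With 2 libraries per group this value cannot settle whether the libraries were paired. With a replicate block 5182 genes were called, and with the crossed pairing, chosen after seeing the data, 5483, with the same 6 members in both. With the block and length and GC offsets 5083 genes were called. With MANE Select lengths, also chosen after seeing the data, the mean share of PRMT5 in the summed level was 20.2% in control and 24.4% under PRMT5 KD, against 33.8% and 40.3%.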

Other observations

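Without the filter on low values, 3 of the 4 peptidylarginine deiminases were called lower under the PRMT5 KD label in the edgeR fit, PADI1 (log2 fold change -4.94, FDR = 6.66e-05), PADI3 (-4.53, FDR = 0.000357) and PADI4 (-5.47, FDR = 0.00143), while PADI2 was not (-1.49, FDR = 0.123). In that fit 3233 of 16834 genes were called lower and 2938 higher. PADI4 had 0 counts in 1 of the libraries labelled PRMT5 KD, so its fitted value depends on the prior count. On the same short arm as MTAP, the interferon gene IFNE had 702 and 647 counts with the control shRNA and 60 and 102 with the PRMT5 shRNA, and the long noncoding RNA MIR31HG, host of a microRNA, had 2103 and 2934 against 569 and 508. The groups did not overlap for either gene, as was so for 80.5% of the genes in the reported fit. With all gene names tested both were called lower by edgeR (IFNE -3.06, FDR = 9.97e-06, and MIR31HG -2.19, FDR = 1.21e-07). In that fit 3542 of 22026 names were called lower. KLHL9 (-0.15, FDR = 0.411) and DMRTA1 (-0.23, FDR = 0.387) in the same neighbourhood were not called. These genes were chosen after their values were seen.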
